A study of Rattus norvegicus with 12 samples.

Results

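Cholesterol and fatty acid synthesis genes were described in intracranial rat tumours grown from 9L gliosarcoma cells. The set was 32 genes, chosen by name with earlier results of these data known. It held 16 enzymes of sterol synthesis, 4 SREBP regulators, 10 enzymes of fatty acid synthesis, desaturation and activation, and 2 sterol exporters. A probe with the gene's symbol in the array annotation was found for 27 of the 32, 1 probe each, among 22067 genes and unnamed probes on the array. The annotation used here gave no probe for Hmgcs1, Mvk, Lss, Insig1 or Fasn. Of the 27, 25 were detected on at least 6 of 12 arrays (detection p under 0.05) and were tested. The exceptions were Cyp51, detected in 3 of 6 EGFRvIII and 2 of 6 EV tumours, and Elovl6, detected in none of the 12.

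EGFRvIII tumours grew from 9L cells transfected to express EGFRvIII, a truncated and constitutively active epidermal growth factor receptor, and EV tumours grew from 9L cells that received the empty vector. There were 6 tumours per group, each from its own female Fischer rat aged 4 to 6 weeks, given no drug, and removed 3 weeks after cells were injected 2 mm below the surface of the cortex. Both lines share the 9L origin, and per the labels the transfection used a pcDNA3.1(+) plasmid with selection in zeocin. The labels name 1 line per group, so differences between the lines cannot be told apart from EGFRvIII, and p-values measure the spread between rats.

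Cells make cholesterol from acetyl-CoA through mevalonate, farnesyl diphosphate and squalene, and make fatty acids from the same precursor through malonyl-CoA. SREBP transcription factors, which are held in the endoplasmic reticulum by Insig proteins when sterol is plentiful, switch on most genes of both routes. Liver X receptors respond to excess sterol by inducing the exporters Abca1 and Abcg1. In the brain, cholesterol is made locally, and myelinating oligodendrocytes and astrocytes are its main makers. Macrophages are rich in the exporters.

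Levels below are log2 normalized signals and differences are EGFRvIII minus EV on that scale with the standard error, tested with limma and adjusted by Benjamini-Hochberg over all 11695 genes tested. Because a probe's brightness is its own, levels are compared between tumours and not between genes. Arrays of EGFRvIII tumours were dimmer than those of EV tumours before normalization, with an upper quartile of signal from 98.7 to 121.0 in EGFRvIII arrays and from 129 to 155 in EV arrays. They detected 11182 to 12040 probes in EGFRvIII tumours and 11720 to 12719 in EV tumours. Of 10 markers listed for gliosarcoma all 10 were detected widely enough to be tested, and Vim, Cd44 and Gfap were among those detected on all 12 arrays. Gfap, also listed as an astrocyte marker, was highest in EV rat 2 (12.38). Of the 10, 1 was higher (Cd44, 1.15) and 4 were lower in EGFRvIII tumours (Pdgfra -1.37, Col1a1 -1.09, Sox2 -0.59 and Nes -0.53). EV rat 2 stood apart through the highest neuron, astrocyte and oligodendrocyte markers, and EV rat 3 through the lowest macrophage markers, so calls of the members and of the neighbouring genes were also made without them.

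Of the sterol synthesis genes, Pmvk, Mvd, Fdps, Fdft1 and Msmo1 were higher in EGFRvIII tumours and none was lower. Of the fatty acid genes, Scd, Fads2 and Acsl4 were higher and Acsl3 was lower. Of the exporters, Abca1 was lower, and no regulator passed the test. Of the 25 members tested, 8 were higher (32.0%), against 11.1% of all genes tested. Another 2 of the 25 were lower, against 10.4% of all genes, and 15 did not pass at an adjusted p of 0.05. Over both directions 21.5% of all genes passed. The median difference of the members was 0.39, and that of all genes was 0.01. Because members were chosen with earlier results of these data known, their shares and medians are description and not an independent test. All 6 EGFRvIII tumours lay above all 6 EV tumours for 5 of the 25 members, against 5.63% of all genes, and below them for 1 of the 25, against 5.49%. Among the passing genes of the array 51.6% were higher, a share that was 29.9% after scaling each array to its median over all probes and 68.2% after scaling to the median over detected probes (added after the data had been seen).

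**Figure D1:**
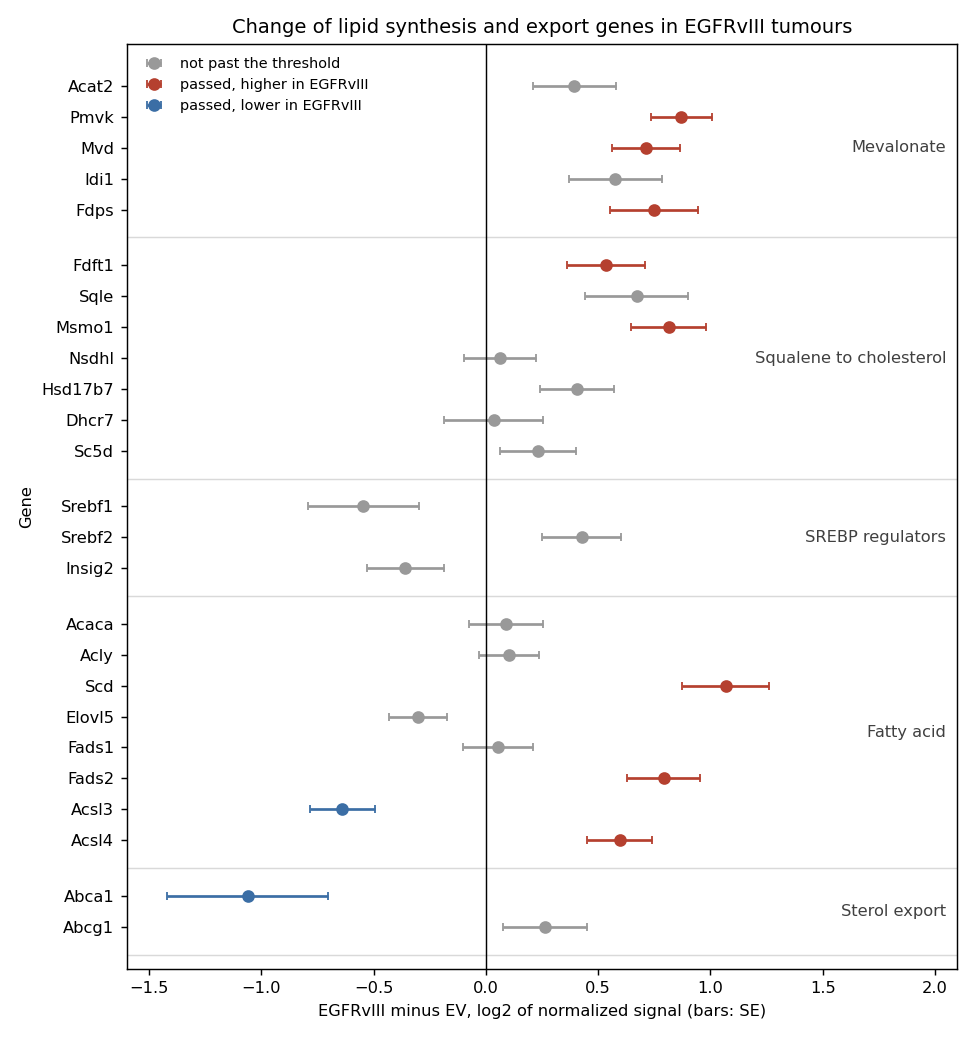
Difference between EGFRvIII and EV tumours for the 25 members tested, on the log2 scale with standard errors (6 tumours per group), by step of the pathway. All 12 sterol synthesis genes lie right of 0, from Dhcr7 at 0.03 to Pmvk at 0.87, whereas fatty acid genes run from -0.64 (Acsl3) to 1.07 (Scd).

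In the mevalonate part of the pathway 3 of 5 genes tested were higher (60%, against 11.1% of all genes) and 0 were lower (against 10.4%). All 5 differences were positive, with a median of 0.71, and of all genes tested 6033 of 11695 differences were positive. Pmvk, which phosphorylates mevalonate phosphate, ranged from 7.003 to 7.261 in EGFRvIII tumours with a median of 7.10, against 5.84 to 6.63 in EV tumours with a median of 6.25. It rose 1.83-fold (0.87 ± 0.14, adjusted p = 0.000655), and every EGFRvIII tumour exceeded every EV tumour. Mvd, the decarboxylase that forms isopentenyl diphosphate, ranged from 8.44 to 8.75 (median 8.59) in EGFRvIII tumours and from 7.29 to 8.33 (median 7.91) in EV tumours. It rose by 0.71 ± 0.15 (adjusted p = 0.00447), again with no overlap. Fdps, which makes farnesyl diphosphate, spanned 8.94 to 9.33 (median 9.16) in EGFRvIII tumours, against 7.53 to 8.92 (median 8.37) in EV tumours. The difference was 0.75 ± 0.20 (adjusted p = 0.0153), and the groups were separated by a narrow margin, since the lowest EGFRvIII tumour, rat 4, stood at 8.94 and the highest EV tumour, rat 1, at 8.92.

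Acat2 and Idi1 did not pass. Acat2, the cytosolic thiolase that joins acetyl-CoA units at the entry of the pathway, differed by 0.39 ± 0.18 (adjusted p = 0.143). Its difference was 0.23 without EV rat 2, and it passed after scaling to the median over detected probes (0.60, adjusted p = 0.0406). Idi1, the isomerase that makes dimethylallyl diphosphate, differed by 0.58 ± 0.21 (adjusted p = 0.0636). EGFRvIII rat 6 stood low for Idi1, at 7.49 against 8.07 to 8.51 in the other 5 EGFRvIII tumours, and without that tumour Idi1 passed (0.71, adjusted p = 0.0174).

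From squalene to cholesterol 2 of 7 genes tested were higher (28.6%, against 11.1% of all genes) and 0 were lower (against 10.4%). All 7 differences were positive, and the median was 0.41. Msmo1, a methyl sterol oxidase that removes methyl groups from lanosterol's products, ranged from 10.78 to 11.37 (median 11.17) in EGFRvIII tumours, against 9.887 to 11.004 (median 10.245) in EV tumours. It rose 1.76-fold (0.81 ± 0.17, adjusted p = 0.00389), although EV rat 3 lay within the EGFRvIII range, and it rose by 0.95 without that rat. Fdft1, squalene synthase, ranged from 8.20 to 8.97 (median 8.62) in EGFRvIII tumours and from 7.495 to 8.439 (median 8.282) in EV tumours. The difference of 0.53 ± 0.17 passed narrowly (adjusted p = 0.0421), and it did not pass when EV rat 2, 5 or 6, or 1 of EGFRvIII rats 1 to 5, was left out (adjusted p from 0.0507 to 0.0928).

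Sqle, squalene epoxidase, missed the threshold by little. It lay between 9.72 and 10.28 (median 10.16) in EGFRvIII tumours, against 8.56 to 10.31 (median 9.44) in EV tumours, where rat 3 was the highest of all 12. The difference was 0.67 ± 0.23 (adjusted p = 0.0505), and it passed without EV rat 3 or without EGFRvIII rat 6 (adjusted p of 0.0401 at most). The remaining enzymes did not pass, and their groups overlapped. Hsd17b7, the sterol 3-keto reductase, differed by 0.41 ± 0.17 (adjusted p = 0.0979), and Sc5d, a sterol desaturase, by 0.23 ± 0.17 (adjusted p = 0.365). Nsdhl, a sterol dehydrogenase, differed by 0.06 ± 0.16, and Dhcr7, which carries out the last reduction to cholesterol, by 0.03 ± 0.22. The signs of these 2 genes are not settled: both turned negative after scaling to the median over all probes (-0.13 for Nsdhl and -0.15 for Dhcr7) and without EV rat 2. Cyp51, the lanosterol demethylase, was near background (4.57 to 5.17 in EGFRvIII and 4.33 to 4.96 in EV tumours) and was not tested.

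Over both parts, 5 of 12 sterol synthesis genes were higher (41.7%), against 11.1% of all genes. Of their differences 12 of 12 were positive, against 6033 of 11695 for all genes. It was 10 of 12 after scaling to the median over all probes or without EV rat 2. The number higher was 3 of 12 after scaling to the median over all probes (against 6.57% of all genes), 7 after scaling over detected probes (against 18.4%) and 9 with array weights (against 13.6%). The median of the 12 was 0.56, and it lay between 0.40 and 0.67 over 24 alternatives.

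**Figure D2:**
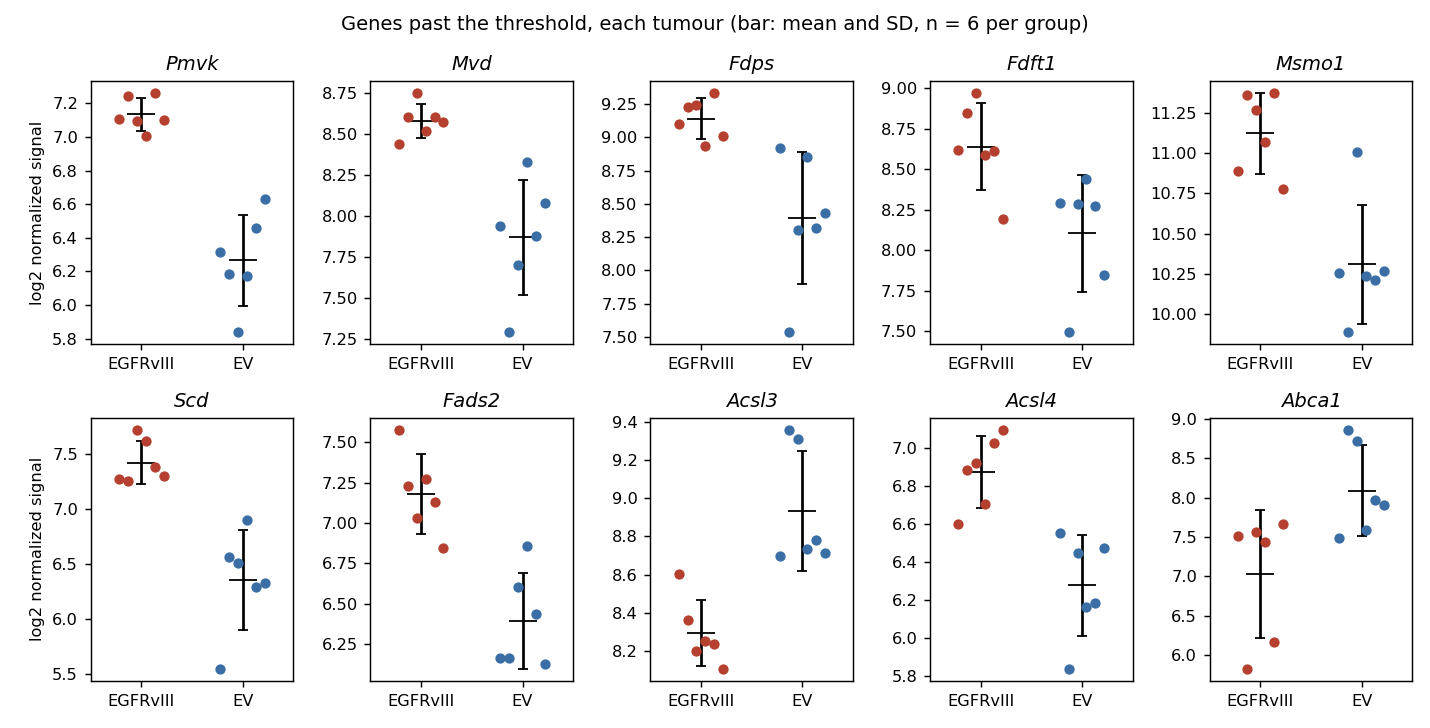
Log2 normalized signal of the 10 members past the threshold in each of the 6 EGFRvIII (left) and 6 EV (right) tumours, with mean and SD. The groups do not overlap for Pmvk, Mvd, Fdps, Scd, Acsl4 and Acsl3, and overlap for Fdft1, Msmo1, Fads2 and Abca1.

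EV rat 2 was the lowest of all 12 tumours for 10 of 12 sterol synthesis genes. Centred on each gene's mean, its 5 mevalonate genes averaged -0.94, against -0.38 to -0.03 in the other EV tumours and 0.13 to 0.50 in EGFRvIII tumours. EV rat 2 also had the highest level of neuron markers, with a mean log2 level of 9.04 over the 9 markers tested, against 5.23 to 7.79 in EGFRvIII and 5.30 to 7.41 in the other EV tumours. The next highest in neuron markers were EGFRvIII rat 1 and EV rat 4. EGFRvIII rat 1 (neuron markers 7.79) had centred mevalonate genes at 0.21, and among EGFRvIII tumours only rat 6 was lower (0.13). EV rat 4 (7.41) had them at -0.03, the highest of the EV tumours. Summed over the list, normalized signal of neuron markers ran from 731 to 3419 in EGFRvIII and from 719 to 9825 in EV tumours. Of the neuron markers not tested, Gad2 and Syn1 were detected in 0 of 6 EGFRvIII tumours and in 2 and 1 of 6 EV tumours. Slc17a7 and Rbfox3 were each detected in 1 of 6 EGFRvIII and 2 of 6 EV tumours, and Vsnl1 in 2 and 3. In EV rat 2 the 9 oligodendrocyte markers tested averaged 8.5, the highest of the 12 arrays, and the list's sums ran from 560 to 2205 in EGFRvIII and from 775 to 5148 in EV tumours. Of the oligodendrocyte markers not tested, Mag was detected in 0 of 6 EGFRvIII and 2 of 6 EV tumours, and Opalin in 1 of 6 in each group. Astrocyte markers summed to 6877 to 11580 in EGFRvIII and 11670 to 25590 in EV tumours. Of these markers 2 of 9 were lower, Gja1 and Clu (22.2%, against 10.4% of all genes). Bright probes weigh most in these sums, among them Gja1 (12.07 to 12.57 in EGFRvIII, 13.00 to 13.19 in EV tumours). The mean log2 level of the astrocyte markers overlapped, at 7.31 to 8.81 in EGFRvIII and 7.59 to 10.415 in EV tumours. Of the other lists, 0 of 9 neuron markers passed, and 1 of 9 oligodendrocyte markers, Aspa, was higher (11.1%, against 11.1% of all genes). Aspa was detected in 6 of 6 EGFRvIII but 3 of 6 EV tumours. Differences were negative for 7 of 9 neuron markers (median -0.879) and for 8 of 9 oligodendrocyte markers (median -0.485). The part of brain tissue in the result was not tested. Without EV rat 2 the median of the mevalonate genes was 0.58 and that of the later genes 0.31, and Pmvk (0.85), Mvd (0.60), Fdps (0.58) and Msmo1 (0.73) still passed. Without EV rats 2 and 3, 8 of 25 members were higher (against 8.51% of all genes) and 2 were lower, Acsl3 and Elovl5 (against 8.18%). Sqle (0.67, adjusted p = 0.00639) was among the higher members then, and Fdft1 was not.

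**Figure D3:**
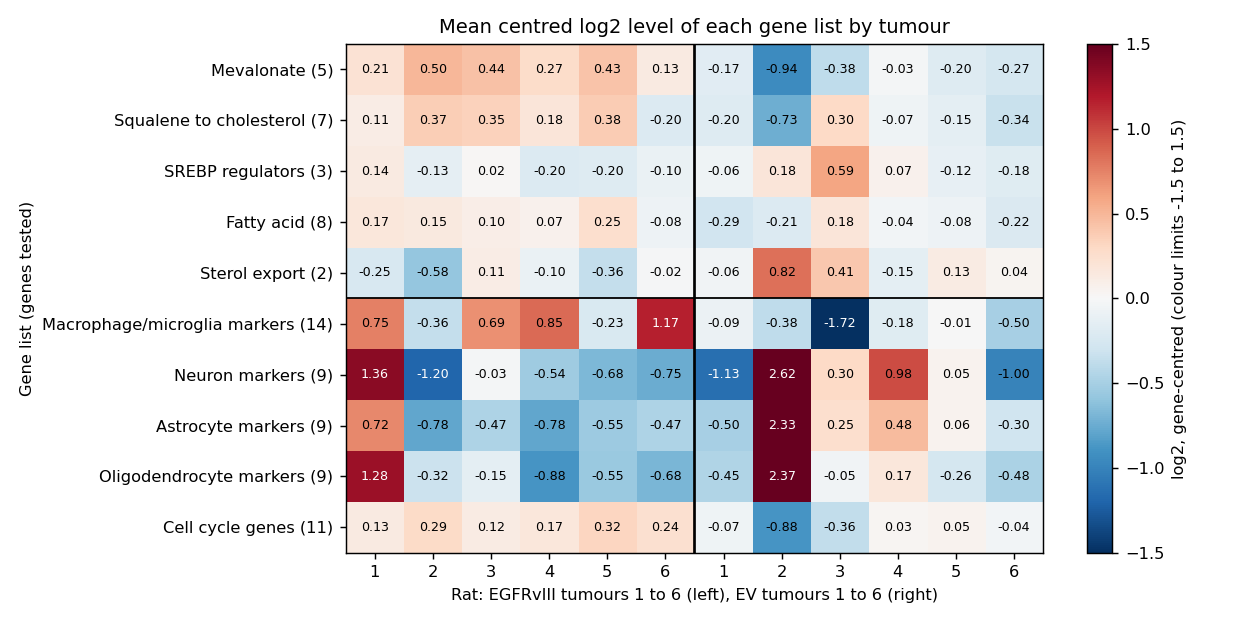
Mean log2 level of each gene list in each tumour, every gene centred on its mean over the 12 arrays, with EGFRvIII rats 1 to 6 on the left and EV rats 1 to 6 on the right. EV rat 2 has the lowest mevalonate genes (-0.94) and the highest neuron markers (2.62), and EV rat 3 has the lowest macrophage markers (-1.72).

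Within groups the later sterol genes also followed particular tumours. EV rat 3 was the highest EV tumour for 6 of the 7 genes from Fdft1 onward, and for 0 of 5 mevalonate genes. EGFRvIII rat 6 was the lowest EGFRvIII tumour for 6 of the 7 later genes, and for 1 of 5 mevalonate genes. EV rat 3 had the lowest mean of the 14 macrophage and microglia markers (centred -1.72), and EGFRvIII rat 6 the highest (1.17). Other lists set these tumours apart too. EV rat 3 had the highest fibroblast markers of all tumours (2.22) and the lowest T and NK cell markers (-2.37). EGFRvIII rat 6 had the highest T and NK cell markers among EGFRvIII tumours (1.43). In bulk tumours, fewer cells of a type and less RNA per cell cannot be told apart. Across the list, 4 of 14 macrophage markers were higher in EGFRvIII tumours (Cd14, Mrc1, Trem2 and Fcgr2b), 0 were lower, and the summed normalized signal ran from 9707 to 31910 in EGFRvIII and from 3551 to 20090 in EV tumours. Cd163, detected in 4 of 6 EGFRvIII and 1 of 6 EV tumours, was not tested. Of all genes tested, 11.1% were higher and 10.4% were lower. Cell cycle genes were higher for 3 of 11 tested (Cdc20, Kif20a and Rrm2), and EV rat 2 was lowest in them too (centred -0.88). Endothelial and fibroblast markers were lower for 6 of 9 tested in each list, 0 endothelial markers were higher, and 1 fibroblast marker, Dpt, was higher (1.94 ± 0.35, adjusted p = 0.00171). Fibroblast markers had sums of 4430 to 8169 in EGFRvIII and 13710 to 29930 in EV tumours. Bright probes such as Col1a2 weigh most in these sums. The mean log2 level of the fibroblast markers overlapped, at 7.76 to 8.68 in EGFRvIII and 8.42 to 10.945 in EV tumours. Which cells made these transcripts was not tested. The part of these cell types in the sterol result was not tested.

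The promoters of these genes are shown because NF-Y, which binds the CCAAT box, works beside SREBP at many sterol genes. RefSeq promoters of the rat build GRCr8 were found for 25 of the 32 members, and the 250 bases before the start of the gene were searched on both strands. CCAAT, or ATTGG on the other strand, was present in 18 of 25 members (72.0%) and in 10 of 13 sterol synthesis members with an entry (76.9%), against 35.7% of 6986 tested genes with an entry and 34.3% of all 27457 promoters. TCACCCCAC, a form of the sterol response element, was in 0 of the 25, against 0.419% of all promoters. Its core CACCCCAC, which lies within it, was also in 0 of 25, against 2.24%, and the E-box TCACGTGA in 0 of 25, against 0.743%. A pair of AGGTCA repeats 4 bases apart, the form read by liver X receptors, was in 0 of 25 and in 0 of all promoters. A match is only a run of letters, and its absence concerns only these letters in this window. The promoters of Fdps (chr2:176804817-176805066, minus strand), Mvd (chr19:67414975-67415224, minus strand) and Msmo1 (chr16:29746863-29747112, plus strand) are shown because these are the 3 genes with the box among the 6 higher members that have an entry, a smaller share than among all 25. That of Scd (chr1:253231732-253231981, minus strand), the desaturase described next, stands for the other 3, Scd, Fads2 and Acsl4, which lack it. Each reads from 5′ to 3′ on its gene's strand, with CCAAT or ATTGG in capitals.
Fdps: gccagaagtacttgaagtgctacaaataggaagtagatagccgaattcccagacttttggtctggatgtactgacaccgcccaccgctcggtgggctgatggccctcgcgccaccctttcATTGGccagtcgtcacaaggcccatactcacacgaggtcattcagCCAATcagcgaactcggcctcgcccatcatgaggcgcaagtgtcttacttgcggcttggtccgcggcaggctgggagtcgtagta
Mvd: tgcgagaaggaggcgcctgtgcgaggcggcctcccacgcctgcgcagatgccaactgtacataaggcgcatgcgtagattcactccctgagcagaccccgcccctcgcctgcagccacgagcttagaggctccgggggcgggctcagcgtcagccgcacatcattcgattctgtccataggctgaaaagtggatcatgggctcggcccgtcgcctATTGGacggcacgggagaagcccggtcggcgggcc
Msmo1: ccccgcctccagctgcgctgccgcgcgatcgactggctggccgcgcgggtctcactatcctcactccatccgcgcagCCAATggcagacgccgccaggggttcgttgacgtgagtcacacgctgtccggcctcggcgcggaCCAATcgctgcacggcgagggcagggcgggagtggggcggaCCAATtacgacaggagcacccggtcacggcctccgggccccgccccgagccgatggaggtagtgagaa
Scd: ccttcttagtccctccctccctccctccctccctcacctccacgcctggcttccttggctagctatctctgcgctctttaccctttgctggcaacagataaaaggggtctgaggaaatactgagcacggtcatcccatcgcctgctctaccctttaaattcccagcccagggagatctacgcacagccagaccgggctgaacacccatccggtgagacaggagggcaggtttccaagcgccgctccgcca
Fdps holds 1 box on each strand, the nearer at 81 to 85 bases before the start, Mvd holds 1 at 31 to 35 bases, and Msmo1 holds 3 on the gene's own strand, the nearest at 64 to 68 bases.

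Of the 3 regulators tested 0 passed with limma, with 2 at an unadjusted p under 0.05. Srebf2, which encodes the SREBP that favours sterol genes, ranged from 5.76 to 6.50 (median 6.18) in EGFRvIII tumours and from 5.19 to 6.16 (median 5.80) in EV tumours, a difference of 0.43 ± 0.18 (adjusted p = 0.103). Srebf1, whose product favours fatty acid genes, ranged from 7.25 to 8.05 (median 7.42) in EGFRvIII tumours and from 7.40 to 8.84 (median 7.90) in EV tumours, a difference of -0.55 ± 0.25 (adjusted p = 0.137). EV rats 2 and 3 were the highest of all tumours for Srebf1, at 8.84 and 8.69, and without both the difference was -0.20. Insig2, which retains SREBP in the endoplasmic reticulum, ranged from 8.64 to 9.60 (median 8.96) against 8.94 to 9.88 (median 9.37) in EV tumours, a difference of -0.36 ± 0.17 (adjusted p = 0.159). It was lower past the threshold without EGFRvIII rat 6 (-0.47, adjusted p = 0.0442). Which transcripts of Srebf1 its probe reads was not examined.

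Among 8 fatty acid genes tested 3 were higher and 1 was lower, against 11.1% and 10.4% of all genes, and the median difference was 0.10. That median was 0.02 without EGFRvIII rat 5, 0.05 without EV rat 1 and 0.17 without EV rat 3 or EGFRvIII rat 6, so its size rested on single tumours. Neither of the measured enzymes that lead to palmitate passed. Acly, which supplies cytosolic acetyl-CoA from citrate, differed by 0.10 ± 0.14 (adjusted p = 0.635), and Acaca, the carboxylase that makes malonyl-CoA, by 0.09 ± 0.17 (adjusted p = 0.743). For Acly the EGFRvIII tumours spanned 8.46 to 9.12 and the EV tumours 8.52 to 9.06, so the ranges nearly coincided. The signs of Acly, Acaca and the desaturase Fads1 turned negative after scaling to the median over all probes (-0.04, -0.08 and -0.04).

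Scd, the desaturase that makes oleate, had the largest rise among the 25 members. It ranged from 7.25 to 7.72 (median 7.34) in EGFRvIII tumours, against 5.54 to 6.90 (median 6.42) in EV tumours. The difference was 1.07 ± 0.19 (adjusted p = 0.0018), with no overlap. Fads2, the delta-6 desaturase of polyunsaturated fatty acids, ranged from 6.84 to 7.58 (median 7.18) in EGFRvIII tumours and from 6.12 to 6.86 (median 6.30) in EV tumours. It rose 1.73-fold (0.79 ± 0.16, adjusted p = 0.0038), with the lowest EGFRvIII tumour, rat 6, just under the highest EV tumour, rat 4. Its partner Fads1, the delta-5 desaturase, differed by only 0.05 ± 0.16 (adjusted p = 0.841). Elovl5, which lengthens polyunsaturated chains, ranged from 7.94 to 8.36 in EGFRvIII and from 8.02 to 8.70 in EV tumours, a difference of -0.30 ± 0.13 (adjusted p = 0.11) that passed without EV rat 2 (-0.39, adjusted p = 0.0306).

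A pair of acyl-CoA synthetases, enzymes that activate fatty acids by joining them to coenzyme A, moved in opposite directions. Acsl4, which prefers arachidonate, ranged from 6.60 to 7.09 (median 6.90) in EGFRvIII tumours, against 5.84 to 6.55 (median 6.31) in EV tumours. It rose 1.51-fold (0.59 ± 0.15, adjusted p = 0.0104). Acsl3, a synthetase of the endoplasmic reticulum and lipid droplets, ranged from 8.10 to 8.60 (median 8.24) in EGFRvIII tumours and from 8.70 to 9.36 (median 8.76) in EV tumours. It fell 1.56-fold (-0.64 ± 0.15, adjusted p = 0.007). Neither gene's groups overlapped, and EV rats 2 and 3, at 9.36 and 9.31, were the highest for Acsl3. Without both it was lower by -0.44 (adjusted p = 0.0162).

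Of the exporters, Abca1 was lower and Abcg1 did not pass, and the difference between them was not tested. Abca1, which loads cholesterol onto apolipoprotein A-I, ranged from 5.82 to 7.66 (median 7.48) in EGFRvIII tumours, against 7.49 to 8.87 (median 7.94) in EV tumours. It was 2.09-fold lower (-1.06 ± 0.36, adjusted p = 0.049), at the edge of the threshold. It did not pass when EV rat 2, 3, 5 or 6, or EGFRvIII rat 2, 4 or 5, was left out (adjusted p from 0.0579 to 0.106), nor in 6 other alternatives, among them the authors' log2 values (adjusted p = 0.0543) and leaving out EV rats 2 and 3 together (-0.71, adjusted p = 0.207). Abcg1, which passes sterol to high-density lipoprotein, ranged from 9.80 to 10.92 (median 10.30) in EGFRvIII tumours and from 9.90 to 10.58 (median 10.03) in EV tumours, a difference of 0.26 ± 0.19 (adjusted p = 0.349). Without EGFRvIII rat 5 it was 0.15, and without EGFRvIII rat 2 it was 0.17.

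**Figure D4:**
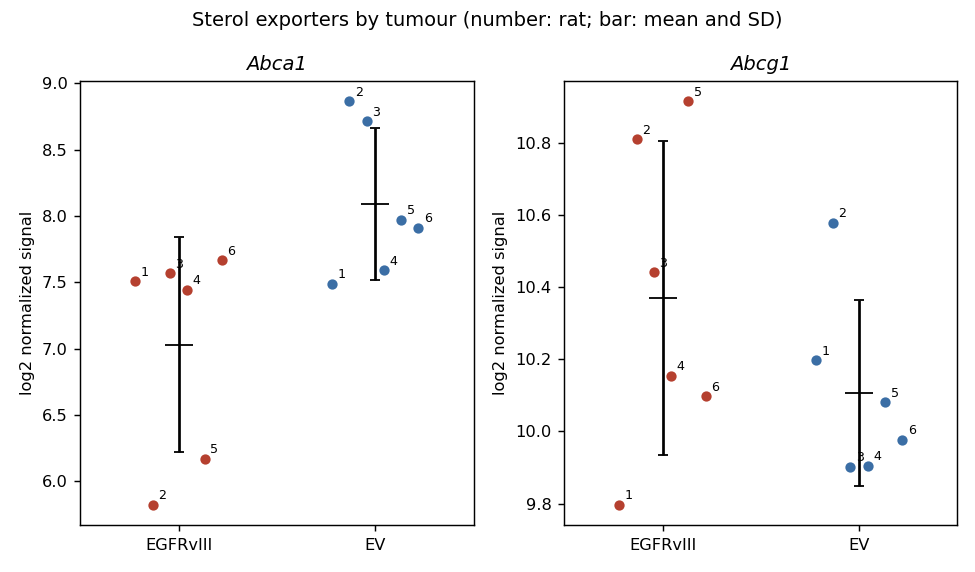
Log2 normalized signal of Abca1 (left panel) and Abcg1 (right panel) in each EGFRvIII and EV tumour, numbered by rat, with mean and SD. EGFRvIII rats 2 and 5 are the lowest of 12 for Abca1 (5.82 and 6.17) and the highest of 12 for Abcg1 (10.81 and 10.92).

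In EGFRvIII tumours the exporters were set apart by the same rats in opposite directions. EGFRvIII rats 2 and 5 had Abca1 at 5.82 and 6.17, against 7.44 to 7.66 in the other 4, and Abcg1 at 10.81 and 10.92, against 9.80 to 10.44. These tumours were also the lowest EGFRvIII tumours in the mean of the macrophage markers (centred -0.36 and -0.23, against 0.69 to 1.17). They were the lowest in the mean of T and NK cell markers too (-1.96 and -1.22, against 0.45 to 1.43). Not every macrophage marker followed its mean. Mrc1 stood at 10.19 and 10.793, against 8.76 to 10.785 in the other 4, and Trem2 at 10.22 and 10.21, against 9.98 to 10.75. In the same rats the sterol synthesis genes stood at 0.42 and 0.40, the highest of the 12 tumours. Among EV tumours, rats 2 and 3 were highest for Abca1 (8.87 and 8.72), and rat 2 was also highest for Abcg1 (10.58). The part of cell type in these values was not tested, and these rats were picked after their values had been seen.

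Other genes of lipid metabolism were taken from 6 lists of neighbouring steps, in which 17 genes passed. Without EV rats 2 and 3, 8 of the 17 passed: Erlin1, Npc1, Stard4, Mylip, Lpcat3, Me1, Dgat2 and Fabp4. Of 5 further sterol synthesis genes tested (Ggps1, Tm7sf2, Ebp, Acat1 and Dhdds) 0 passed with limma, with 1 at an unadjusted p under 0.05, and their median was -0.12. Of 7 genes that process or degrade SREBP control proteins, 1 was higher (14.3%, against 11.1% of all genes). It was Erlin1, which takes part in sterol-driven degradation in the endoplasmic reticulum (0.66 ± 0.17, adjusted p = 0.0157). Scap, the sterol sensor that escorts SREBP, differed by -0.09 ± 0.14. Of 13 genes of sterol uptake, trafficking and oxidation 3 were higher (23.1%, against 11.1% of all genes) and 1 was lower (7.69%, against 10.4%). Ch25h, which makes the signalling oxysterol 25-hydroxycholesterol, rose by 1.498 ± 0.47 (adjusted p = 0.0371), the sterol carrier Stard4 by 0.73 ± 0.19 (adjusted p = 0.0139) with no overlap, and the lysosomal exporter Npc1 by 0.49 ± 0.14 (adjusted p = 0.0245). Its lysosomal partner Npc2 was lower (-0.27 ± 0.09, adjusted p = 0.0368). Without EV rats 2 and 3, Ch25h (1.10, adjusted p = 0.128) and Npc2 (-0.22, adjusted p = 0.129) did not pass, and Ch25h also failed to pass in 6 of the fits that left out a single tumour (EV rat 2, 3 or 6, or EGFRvIII rat 4, 5 or 6). Npc2 also did not pass when EV rat 1, 2, 3 or 6, or 1 of EGFRvIII rats 2 to 5, was left out (adjusted p of 0.0817 at most). Npc1 did not pass when EV rat 1 or 6, or EGFRvIII rat 4 or 5, was left out (adjusted p of 0.0588 at most).

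Among 9 liver X receptor genes and targets, 1 was higher (11.1%, against 11.1% of all genes) and 2 were lower (22.2%, against 10.4%). Lpcat3, a phospholipid acyltransferase, rose by 0.52 ± 0.09 (adjusted p = 0.00134). Apoc1, an apolipoprotein made by macrophages, was lower by -1.72 ± 0.55 (adjusted p = 0.0406), and Mylip, the ligase that degrades the LDL receptor, by -0.90 ± 0.22 (adjusted p = 0.00987). Apoc1 and Mylip were each detected in 4 of 6 EGFRvIII and 6 of 6 EV tumours. Without EV rats 2 and 3 Apoc1 did not pass (-1.72, adjusted p = 0.0911), nor did it with EV rat 1, 2, 5 or 6 or 1 of EGFRvIII rats 2 to 5 left out. The receptors Nr1h3 (0.21 ± 0.26) and Nr1h2 (-0.08 ± 0.10) did not pass. Of 12 further fatty acid genes, 1 was higher (8.33%, against 11.1% of all genes) and 2 were lower (16.7%, against 10.4%). Me1, the malic enzyme that supplies NADPH, rose by 0.71 ± 0.13 (adjusted p = 0.0015). Scd2, the desaturase paralogue abundant in brain, was lower by -0.76 ± 0.20 (adjusted p = 0.0178), opposite in direction to Scd, and Hacd3, a dehydratase of chain elongation, by -0.60 ± 0.16 (adjusted p = 0.0191). Scd2 averaged 10.97 in EGFRvIII and 11.73 in EV tumours, where rats 2 and 3 were the highest at 12.30 and 12.35. Without both, Scd2 (-0.46, adjusted p = 0.0507) and Hacd3 (-0.39, adjusted p = 0.051) did not pass. Whether the probe of either gene also binds the other's transcript was not examined.

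Of 16 genes of lipid storage and fatty acid uptake tested, 5 were higher (31.2%, against 11.1% of all genes), 1 was lower (6.25%, against 10.4%), and the median was 0.34. Fabp4, a fatty acid carrier of adipocytes and macrophages, rose by 1.71 ± 0.33 (adjusted p = 0.00255), but was above background in only 5 of 6 EGFRvIII and 2 of 6 EV tumours, so the size of this difference rests on EV values mostly at background. Dgat2, which completes triglyceride synthesis, rose by 1.36 ± 0.33 (adjusted p = 0.0098), and Plin2, which coats lipid droplets, by 0.63 ± 0.18 (adjusted p = 0.0234). Lpin1, a phosphatidate phosphatase, was lower by -0.51 ± 0.14 (adjusted p = 0.0181) with no overlap. Without EV rats 2 and 3, 2 of the 16 were higher (against 8.51% of all genes) and 0 lower (against 8.18%). Plin2 (0.42, adjusted p = 0.0999) and Lpin1 (-0.38, adjusted p = 0.0718) did not pass then, and Plin2 did not pass without EGFRvIII rat 4.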

How the data were processed

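RNA of 12 tumours (about 100 ng each) was amplified to biotinylated cRNA and measured on Illumina RatRef-12 bead arrays, 1 per tumour, per the labels' protocols. The authors deposited an average signal intensity per probe, per the file headers, from which a background had been subtracted, since values go below 0, and a detection score from 0 to 1, read here from its values as 1 minus a detection p. The deposited value table was read as log2 and quantile normalized from its values alone (the tools listed by the submitters' processing notes include Partek, with its role unstated).

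The deposited intensities were normalized with neqc of limma 3.58.1, run in R 4.3.3 (background model from the detection p, offset 16, log2, quantile normalization). The filter kept 11862 of 22523 probes, those detected at p under 0.05 in 6 or more tumours, and a gene was represented by its kept probe with the highest mean. Groups were compared with lmFit and eBayes with trend, two-sided, over all 11695 genes, with 10 residual degrees of freedom, after a check on simulated data. The small number of arrays limits the precision. The arms have no test of their own and are given as counts and medians.

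Members and lists were chosen with earlier results of these data known. All members are accounted for, with levels in each group for those past the threshold, those without overlap, the regulators and the exporters. Values of the other members are given beyond that rule, to complete their step of the pathway. At most 4 passing genes per further list, those with the largest change, are named. Scap, Nr1h2, Nr1h3 and the further sterol synthesis genes were named beyond that rule, after their values had been seen. Alternatives were other normalizations, filters, probe choices and fits, the rat number as a block, and tumours left out. Figures used Python 3.11.15 and matplotlib 3.10.9.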

Additional observations from a re-analysis of the deposited data

Results flagged for a closer look

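Among 54 sets of 6 tumours checked, 2 had a tumour far from the others in its group, where chance sets apart about 1 in 20. For Sqle, EGFRvIII rat 6 stood at 9.72, against 10.07 to 10.28 in the other 5 EGFRvIII tumours. For Msmo1, EV rat 3 stood at 11, against 9.89 to 10.27 in the other 5 EV tumours.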

How the results depend on the processing

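Across 24 alternatives, 6 of the 10 passing members passed in every one: Pmvk, Mvd, Msmo1, Scd and Fads2 higher and Acsl3 lower. Fdps (adjusted p = 0.0712) and Acsl4 (adjusted p = 0.0734) lost their call only after scaling to the median over all probes. Fdft1 lost its call in 13 alternatives (8 of them leaving out 1 tumour; adjusted p up to 0.237), and Abca1 in 13 (7 of them leaving out 1 tumour; adjusted p up to 0.207). Of the 15 members that did not pass, 9 passed under some alternative, and 6 (Nsdhl, Dhcr7, Acaca, Acly, Fads1 and Abcg1) under none. The number of members higher was 8, moved to 5 after scaling to the median over all probes and to 13 with array weights, and lay between 7 and 10 with 1 tumour left out. The number of sterol synthesis genes higher was 5, and 3, 9 and 7 after scaling to the median over all probes, with array weights and after scaling over detected probes. The number of members lower was 2, moved to 4 after scaling to the median over all probes, and was 1 with signals raised to a floor of 16, with the authors' log2 values, with no filter on dim probes, with the rat number as a replicate block and without a variance trend, and lay between 1 and 3 with 1 tumour left out. The cause of these changes was not tested.

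Of the 17 neighbouring genes past the threshold, 5 passed in every alternative that gave a value (Lpcat3, Me1, Mylip, Dgat2 and Fabp4), and 8 without EV rats 2 and 3; these fits were added after the data had been seen. Scaling to the median over all probes gave 768 higher and 1799 lower genes, and to the median over detected probes 2157 and 1005. Scaling over detected probes moved the median of all genes to 0.11, with sterol genes at 0.59. The medians of the arms kept their sign in every alternative except that of the fatty acid genes, which was -0.04 after scaling over all probes. The labels number rats 1 to 6 in both groups, and letter the arrays A to L in alternation between the groups. Same-numbered tumours correlated at -0.34 to -0.06 after group means were removed, and 0 of 6 matched best. No positive correlation of same-numbered tumours was seen, but this cannot exclude a pairing in how the samples were handled. With the rat number as a replicate block 8 members were higher and 1 lower, against 8.06% and 7.47% of all genes (Sqle gained its call, Fdft1 and Abca1 lost theirs).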
